A study of Solanum lycopersicum with 12 samples.

Results

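Described here are the 200 genes whose transcript levels differed most among 3 libraries of untreated tomato plants (Solanum lycopersicum, cultivar Micro Tom). Their levels in plants that received ultrasound, drought stress or both are also given. The 200 genes were taken from 34075 annotated genes in leaf RNA. A gene qualified with a mean of at least 5 CPM (read counts scaled to a library total of 1000000) over the 3 control libraries, which 15312 genes reached. These were ranked by the standard deviation (SD) over the 3 libraries of log2(CPM + 0.5), and the first 200 were kept. The control values therefore chose the members, so their spread in the control is a description and carries no test. The SD ranged from 4.12 for the first member through 2.38 at the median to 2.0 for the last, against a median of 0.288 over all 15312 genes. Just inside the limit, the genes ranked 196 to 200 had SDs of 2.01, 2.01, 2.0, 2.0 and 2.0, and the 5 genes just outside it had SDs of 2.0, 2.0, 1.99, 1.99 and 1.99, so the limit falls within a continuous series.

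The plants came from a study of priming, i.e., of whether an earlier stimulus changes a plant's later response. All 4 groups were leaves of the same cultivar sampled 48 h after treatment, with 3 biological replicates each as labelled. Control plants (C) were untreated. Ultrasound plants (US) received airborne ultrasound of 30 kHz and 120 W for 5 min from a head 6 cm away. Drought plants (D) were watered with 10 ml of 20% polyethylene glycol, which lowers the water potential around the roots, and plants of the combined treatment (US+D) were given that solution right after ultrasound. Libraries are written here as group and replicate, e.g., C 1. How many plants stood behind one replicate is not given in the sources used here. Totals were 44837873, 106829565 and 99000486 counts in C 1 to C 3, 36766633 to 42940503 in US and 37905900 to 41748213 in D, with 33640280, 39143316 and 87164190 in US+D 1 to US+D 3.

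Transcript levels of leaves change within minutes to hours with light, temperature, touch, injury and pathogens, and pathways for pigments, defence and stress proteins are among those best known for such changes. A gene of this kind can therefore differ between plants of one genotype grown side by side. Sampling of reads adds to the spread, and the SD expected from counting alone was 0.0689 at the median of the members and 0.104 at most. That value does not cover library preparation, whose part in the spread was not tested.

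The same genes also varied within the treated groups, which the rule had not used. Ranked in the same way within each group, 58 of the 200 members were among the 200 most variable genes of US (1.11% of the 15312 genes were), 38 were among those of D (1.21%), and 75 were among those of US+D (1.14%). At least 1 of these 3 lists held 105 members, 17 members were in all 3, and 95 were in none. Over all genes past the control minimum, 2.47% were in at least 1 list and 0.202% in all 3. The median SD of the members was 1.09 in US against 0.287 over all genes, 0.569 against 0.192 in D, and 1.74 against 0.335 in US+D, i.e., 3.81, 2.96 and 5.18 times as large. The 200 genes ranked next had medians of 0.874, 0.466 and 1.40. The SD exceeded the 90th percentile of all genes (10% by construction) for 158, 125 and 174 members in the same order of groups, whereas 10, 23 and 2 members lay below the median of all genes. In linear terms, the highest library of a group exceeded the lowest 25.5-fold in C, 4.22-fold in US and 2.1-fold in D, with 9.95-fold in US+D at the median member, on the CPM + 0.5 scale.

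**Figure D1:**
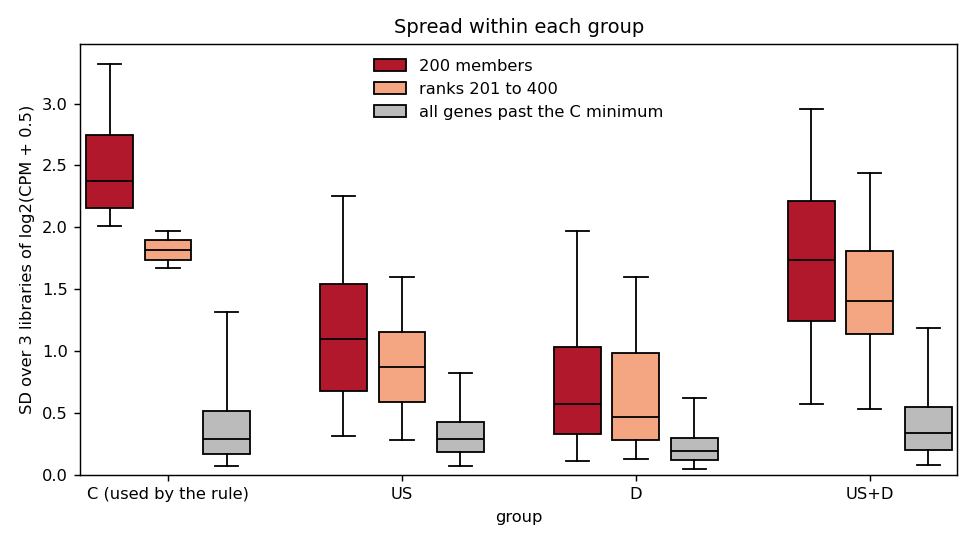
SD over the 3 libraries of log2(CPM + 0.5) in each group (vertical axis) for the 200 members, the 200 genes ranked next and all 15312 genes past the control minimum. Boxes span the quartiles with the median as a line and whiskers reach the 5th and 95th percentiles. The C boxes were fixed by the rule, and in US, D and US+D the medians of the members were 1.09, 0.569 and 1.74 against 0.287, 0.192 and 0.335 over all genes.

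These counts depended on single libraries. Without C 1, 32 of 200 newly chosen members were among the most variable of US and 11 among those of D. Leaving out C 2 gave 64 for D, and leaving out C 3 gave 38 for US. Without US 3 the US count was 33, without D 3 the D count was 19, and without US+D 2 the US+D count was 49. Members with a mean under 5 CPM in a treated group could not enter that group's list, and 134, 129 and 145 of the 200 reached this minimum in US, D and US+D.

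Each member was next placed by the control library farthest from the middle one on the log2 scale. Of the 200, 53 were set by a low C 3, 51 by a high C 2, 51 by a high C 3, 31 by a low C 1, 12 by a low C 2 and 2 by a high C 1. C 2 was the highest and C 3 the lowest library for 91 members (45.5%, against 22.0% of all genes), and C 3 was over C 1 for 51 (25.5% against 12%). The replicates C 2 and C 3 were also the deepest of the 12 libraries, and the part of depth in these orders was not tested. Thinning every library to the smallest total kept 191 of the 200 members. Thinning leaves the expected CPM of each library unchanged, so it cannot decide the part of depth in these orders.

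**Figure D2:**
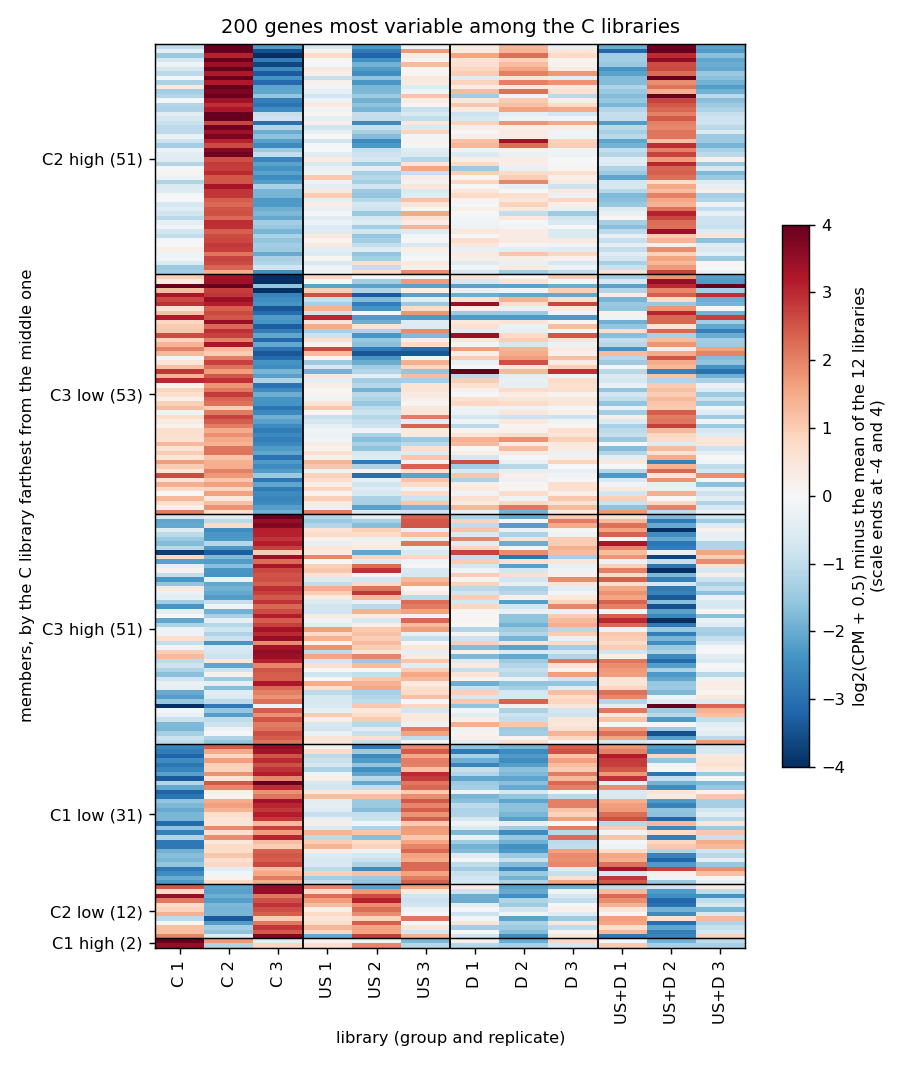
Log2(CPM + 0.5) of each of the 200 members (rows) in the 12 libraries (columns), minus the mean of that gene over all libraries, with red above and blue below the mean. Rows are grouped by the control pattern with its number of members. In the block of 51 members with a high C 2, US+D 2 is the highest US+D library in every row.

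The control patterns were repeated by particular treated libraries. For all 51 members with a high C 2, US+D 2 was the highest of the US+D libraries (24.3% of all genes have US+D 2 as the highest), and for 48 of them US 2 was the lowest of US (26.8% of all genes). Their median difference from the group mean was 2.98 in C 2 and 2.25 in US+D 2 on the log2 scale. Within D it stayed between -0.21 and 0.27, while their median SD in D was 0.418 against 0.192 over all genes. Of the 15312 genes past the control minimum, 2739 had a high C 2 of any size, these 51 members included, and in them US+D 2 was also the highest of its group in 71.4%. Members with a low C 3 followed a related course, with US+D 2 highest in 38 of 53 and US 2 lowest in 43 of 53. Among all 2501 genes with a low C 3 of any size these shares were 40.2% and 43.9%.

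Members with a high C 3 went the opposite way in US+D. US+D 1 was the highest of its group in 42 of 51 (59.9% of all genes) and US+D 2 the lowest in 46 of 51 (61.2% of all genes). Among all 3328 genes with a high C 3 of any size the shares were 71.8% and 80.8%, so both stand beside a high background. Of the 31 members with a low C 1, 23 were among the 200 most variable genes of at least 1 treated group and 8 of none. C 3 was the highest control library in all 31, US 3 was the highest of US in all 31 (27.9% of all genes), D 3 was the highest of D in 30 (30.7%), and US+D 1 the highest of US+D in 24 (59.9%). Among all 1298 genes with a low C 1 of any size, the shares for US 3, D 3 and US+D 1 were 43.9%, 33.5% and 49.1%. The median differences of the 31 members from the group mean were 1.98 for US 3 and 1.95 for both D 3 and US+D 1. US 3, D 3 and US+D 1 were all highest together in 43 members (21.5%), 24 of them with a low C 1, against 5.16% of all genes. The labels give no date, position or batch for the libraries, so the part of such factors in these shared orders was not tested.

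**Figure D3:**
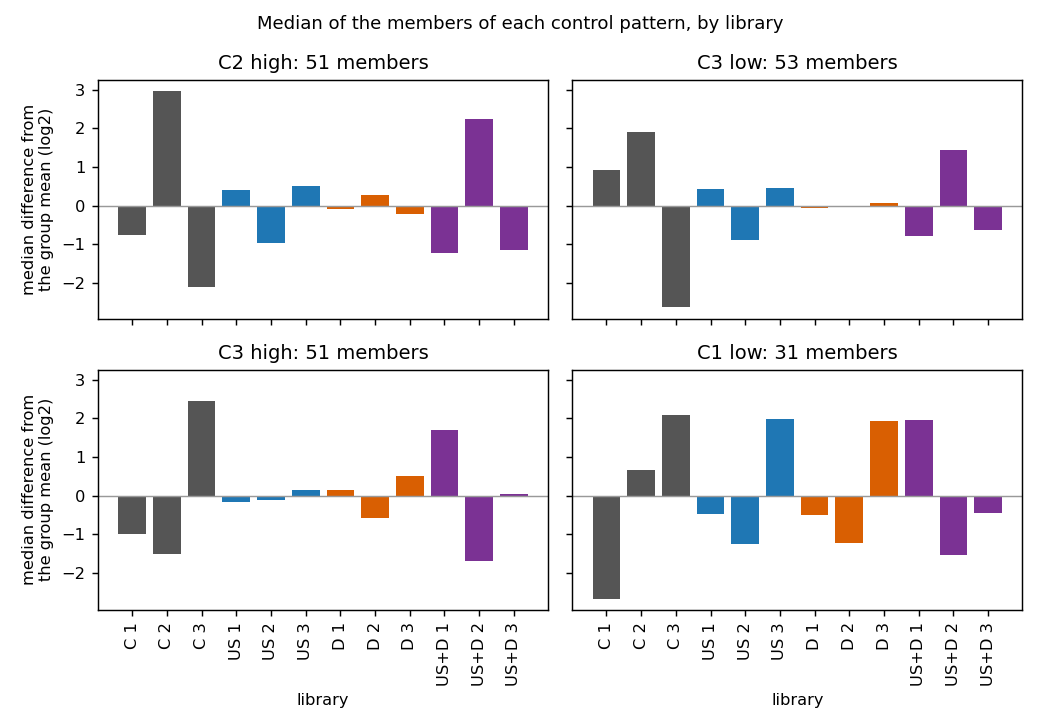
Median over the members of 4 control patterns of log2(CPM + 0.5) minus the mean of the library's own group (vertical axis), for each of the 12 libraries. The C bars follow from the rule. For the high C 2 pattern US+D 2 reaches 2.25, and for the low C 1 pattern US 3, D 3 and US+D 1 reach 1.98, 1.95 and 1.95.

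The 17 members found among the 200 most variable genes of every group had one order in common. In all 17, C 3, US 3, D 3 and US+D 1 were the highest libraries of their groups. None of the 17 had a description, so they are given by identifier, with the first 10 by control SD as follows. Solyc07g040960.1.1 (chromosome 7, 51063108 to 51064607, plus strand, build SL4.0) gave 5.02, 178 and 379 CPM in C, 28.7, 4.2 and 124 in US and 10.5, 8.68 and 178 in D, with 113, 6.77 and 20 in US+D. Solyc03g026280.3.1 gave 0.379, 17.1 and 60.8 CPM in C, 10.2, 1.74 and 32.9 in US and 0.369, 0.554 and 35.1 in D, with 24.4, 0.613 and 3.44 in US+D. In both genes the highest library of each group stood well apart from the lowest, and the 4 groups overlapped throughout. Solyc04g007580.1.1 was at 0.736, 8.13 and 66.1 CPM in C, 1.79, 1.06 and 29.1 in US and 2.03, 0.607 and 14.1 in D, with 23.2, 0.766 and 3.12 in US+D. Solyc11g073075.1.1 was at 0.781, 19.5 and 50.6 CPM in C, 4.68, 0.821 and 45 in US and 2.03, 1.19 and 23.8 in D, with 18.4, 0.281 and 1.54 in US+D. For Solyc07g056000.2.1 the values were 0.736, 17.8 and 47.8 CPM in C, 14.5, 5.33 and 86.5 in US and 2.48, 2.4 and 30.8 in D, with 93.1, 5.95 and 11.7 in US+D. US+D 1 and US 3 of this gene exceeded even the highest control library. Solyc01g091590.3.1 reached 1.23, 26.5 and 53.7 CPM in C, 3.63, 3.26 and 34.1 in US and 2.27, 1.27 and 28.2 in D, with 25.3, 0.766 and 2.0 in US+D. Solyc02g087350.3.1 reached 1.65, 17.6 and 65.1 CPM in C, 4.24, 1.86 and 35.6 in US and 1.53, 1.0 and 25.6 in D, with 17, 0.843 and 2.04 in US+D. Solyc04g077980.1.1 counted 7.87, 89.2 and 240.1 CPM in C, 21.4, 9.82 and 112 in US and 13.6, 8.73 and 117 in D, with 91.1, 4.06 and 11.1 in US+D. The last 3 genes shared nearly the same profile, with D 1 and D 2 at a small share of D 3. Solyc03g082370.1.1 had 1.94, 12.2 and 62 CPM in C, 6.52, 4.34 and 45.2 in US and 5.14, 1.45 and 26.9 in D, with 51.5, 0.485 and 3.64 in US+D. Solyc07g056190.3.1 had 1.83, 10.3 and 59 CPM in C, 6.66, 5.26 and 50 in US and 21.5, 6.73 and 46.2 in D, with 48.6, 0.562 and 7.02 in US+D. In edgeR's quasi-likelihood test on the 9 treated libraries none of these 10 genes differed between treated groups, with adjusted p between 0.658 and 0.999.

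**Figure D4:**
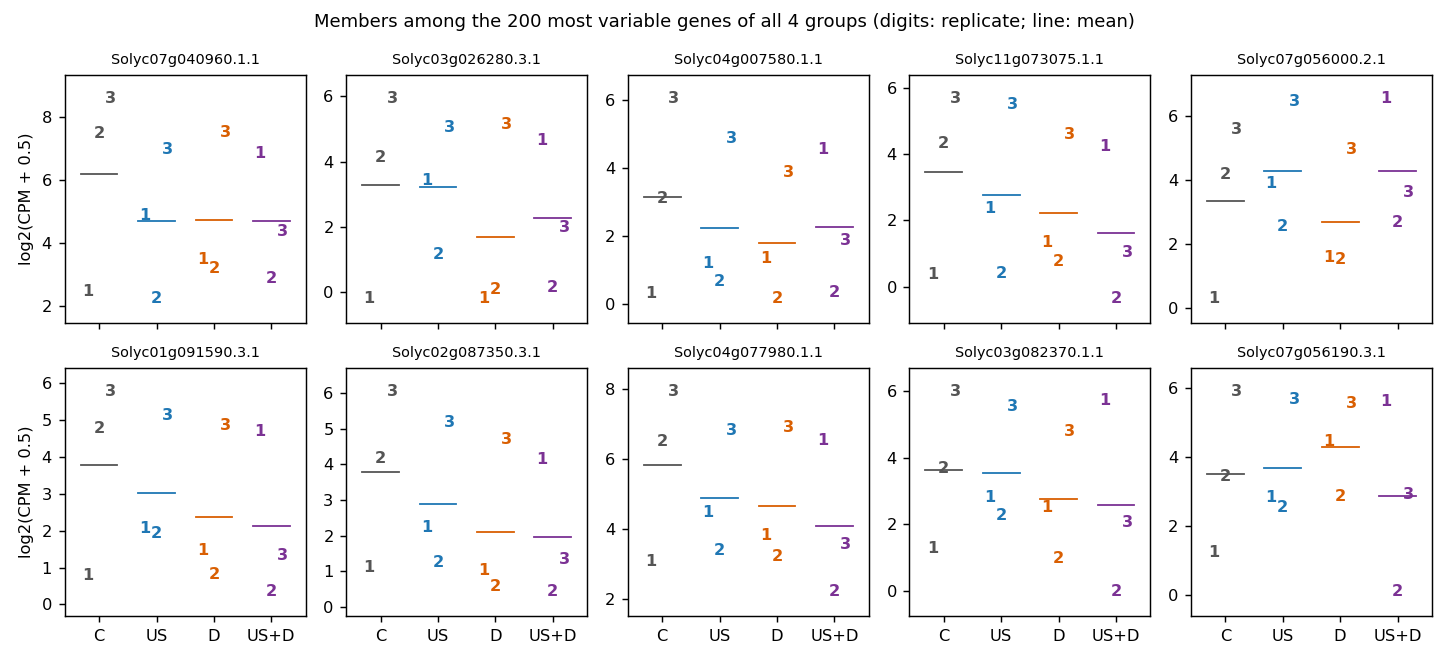
Log2(CPM + 0.5) (vertical axis, scaled per gene) of 10 members that were among the 200 most variable genes in each of the 4 groups. Each digit is a library, drawn as its replicate number, and the line is the group mean. C 3, US 3, D 3 and US+D 1 are the highest of their groups in all 10 panels.

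Among the 10 members with the largest control SD, C 3 was the lowest control library in all 10 and C 2 the highest in 9. Solyc12g087940.2.1 (chromosome 12, 63008748 to 63011121, minus strand) ranked first with 79, 406 and 1.07 CPM in C, 71.8, 38 and 37.5 in US and 60.3, 41.5 and 82.5 in D, with 15.5, 139.6 and 8.52 in US+D. Its SD fell from 4.12 in C to 0.53 in US and 0.49 in D, and was 2.09 in US+D. Solyc09g062970.1.1 followed with 0.714, 93.7 and 0.0101 CPM in C, 1.07, 0 and 1.58 in US and 2.58, 5.7 and 1.49 in D, with 0.119, 36.6 and 0.0574 in US+D, where C 3 held 1 read and US 2 none. Solyc12g009650.2.1 gave 125, 1032 and 3.6 CPM in C, 98.1, 36.4 and 319 in US and 60.4, 146 and 91.1 in D, with 63.4, 1104 and 20.2 in US+D. US+D 2 and C 2 were alike in this gene and each was over 3 times the next library. Solyc11g006250.2.1 gave 5.71, 124 and 0.182 CPM in C, 8.41, 0.603 and 24.8 in US and 9.73, 19.8 and 10.3 in D, with 0.386, 124 and 1.12 in US+D. Solyc12g011010.2.1 gave 8.92, 225 and 1.18 CPM in C, 43.4, 2.41 and 33.8 in US and 78.6, 121 and 45.1 in D, with 9.51, 208 and 7.84 in US+D, with all 3 D libraries above all 3 US libraries. Solyc07g055950.3.1 was at 4.46, 137 and 0.667 CPM in C, 7.22, 0.99 and 8.16 in US and 10.8, 14.7 and 8.02 in D, with 2.62, 92.7 and 1.38 in US+D. In each of the last 3 genes C 2 and US+D 2 were the highest of the 12 libraries. Solyc06g065970.1.1 was at 30.9, 383 and 2.41 CPM in C, 33.6, 9.17 and 85.7 in US and 56.4, 84.2 and 39.8 in D, with 12.2, 220.1 and 8.68 in US+D. Solyc03g121900.1.1 was at 216, 617 and 5.39 CPM in C, 180.3, 38.7 and 109 in US and 72.8, 82.5 and 181 in D, with 40.5, 357 and 34.9 in US+D. Solyc02g080330.4.1 was at 1.7, 55.5 and 0.0909 CPM in C, 3.98, 0.241 and 3.18 in US and 5.61, 9.89 and 3.76 in D, with 0.178, 20.9 and 0.344 in US+D. None of these 9 genes had a description, and the sixth in rank, an SNF2-type gene, is given further on with the members that were near-absent in some libraries.

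The 5 members with the highest mean CPM in C included Solyc12g009650.2.1, Solyc03g121900.1.1 and Solyc07g040960.1.1 from above. Solyc10g075150.2.1 (chromosome 10, 57921197 to 57922862, minus strand) had the highest mean of the members with 581, 102 and 3316 CPM in C, 1091, 3864 and 335 in US and 445, 317 and 443 in D, with 2074, 29.9 and 316 in US+D. It was level in D, where the SD was 0.28, and in US+D it ranged from 29.9 to 2074 CPM. Solyc07g041720.1.1 had 88.9, 645 and 17.6 CPM in C, 78.5, 74 and 275 in US and 34.1, 77.5 and 101 in D, with 41, 477 and 57.4 in US+D. A further pair of genes was among those with the largest SD in US+D. Solyc10g079350.3.1 gave 0.312, 27.4 and 0.131 CPM in C, 0.582, 0.193 and 3.54 in US and 0.211, 1.19 and 0.383 in D, with 0.0595, 70.3 and 0.379 in US+D, i.e., C 2 and US+D 2 stood above every other library. Solyc00g500353.1.1, on the unplaced sequences (chromosome 0), gave 5.53, 19.6 and 136 CPM in C, 22.1, 15.8 and 123 in US and 27.2, 7.81 and 61.9 in D, with 207, 1.1 and 20.4 in US+D, with US+D 1 highest and US+D 2 lowest of all 12.

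Only 19 of the 200 members (9.5%, against 5.22% of the 15312 genes) carried a description in the sources used here. The descriptions were those the study gave to genes that it listed as changed in transcription or methylation, so the described members were picked partly on these same libraries and their functions are not a fair sample of all members. Of 27 gene lists built from description terms, 7 held a member and only the list of unknown proteins held 3 or more (4 members of 46 genes). The flavonoid list held 2 of 6, the peroxidase list 2 of 4, and the lists of heat shock proteins (of 8), wound proteins (of 12), pathogenesis-related proteins (of 5) and ethylene (of 9) held 1 each, the heat shock and ethylene lists the same gene. Lists for photosynthesis, cell wall, clock, hormones other than ethylene, transcription factors and transport had no member among 1 to 33 described genes each. Over all genes the share of members is 1.31%, but the lists draw only on described genes. Of the 799 described genes past the minimum, 19 were members.

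Among the members with a low C 1, 5 described ones formed a group in which all 3 D libraries lay below all 3 US libraries, and all 3 US+D libraries above all 3 D libraries. Flavonoid 3',5'-hydroxylase (Solyc11g066580.3.1, chromosome 11, 50364286 to 50368120, plus strand) adds the hydroxyl groups that lead towards the blue delphinidin-type anthocyanins. Its levels were 1.14, 16.5 and 34 CPM in C, 27.2, 22.8 and 34 in US and 2.58, 1.4 and 4.55 in D, with 9.33, 17.5 and 22.4 in US+D. C 1 lay below every D library, and C 2 and C 3 were within or near the range of US and US+D. Dihydroflavonol 4-reductase (Solyc02g085020.4.1, chromosome 2, 46065285 to 46067689, plus strand) makes the leucoanthocyanidins from which anthocyanins are formed. It gave 2.1, 24.9 and 43.9 CPM in C, 37.1, 31.3 and 55.9 in US and 6.51, 4.46 and 8.58 in D, with 17.9, 32.8 and 51.9 in US+D. The annotated span of this gene overlaps that of another gene, so reads of the shared stretch are uncertain. A glycosyltransferase (Solyc12g098590.3.1), of the enzyme class that adds sugars to small molecules, gave 1.92, 29.4 and 34.1 CPM in C, 44.5, 31.8 and 66.7 in US and 4.19, 2.72 and 8.24 in D, with 14.7, 36.1 and 41.9 in US+D. An HXXXD-type acyl-transferase (Solyc12g088170.2.1), of the class that adds acyl groups to plant metabolites, gave 2.01, 19.5 and 81.5 CPM in C, 42.2, 42.1 and 65.9 in US and 4.64, 5.78 and 8.14 in D, with 11.5, 23 and 38.7 in US+D. A glutathione S-transferase (Solyc02g081340.3.1) gave 2.77, 16.8 and 52.5 CPM in C, 35.3, 41.7 and 56.2 in US and 9.52, 6.12 and 9.25 in D, with 11, 21.2 and 42.2 in US+D. In all 5 genes C 1 was the lowest of the 12 libraries.

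The SDs of these 5 genes were 0.28 to 0.53 in US and 0.33 to 0.73 in D, with 0.63 to 0.95 in US+D, i.e., smaller than in C but above the upper quartile of all genes in D (0.293) and US+D (0.545), and none was among the 200 most variable of any treated group. The difference between D and US was -3.28 on the log2 scale (SE 0.48, adjusted p = 0.0891) for flavonoid 3',5'-hydroxylase, -2.98 (SE 0.47, adjusted p = 0.0891) for the acyl-transferase, -2.65 (SE 0.44, adjusted p = 0.0903) for dihydroflavonol 4-reductase, -3.22 (SE 0.56, adjusted p = 0.0943) for the glycosyltransferase and -2.40 (SE 0.47, adjusted p = 0.114) for the glutathione S-transferase, all in edgeR's quasi-likelihood test, where none passed 0.05. Between US+D and D the differences were 2.57, 2.0, 2.42, 2.66 and 1.61 in the same order of genes, with edgeR adjusted p from 0.0827 to 0.19. With DESeq2 all 5 passed in both contrasts, with adjusted p from 1.20e-08 to 8.07e-05 for D against US. Since the study chose its described genes with that tool on these libraries, this is not independent support.

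Of the flavonoid list, 2 genes that were not members had related control values. Anthocyanin permease (Solyc03g025190.4.1, rank 421 in C), described as a transporter of the pigment, gave 4.13, 28.9 and 35.2 CPM in C, 42.8, 36.5 and 49 in US and 5.4, 4.09 and 7.21 in D, with 18.5, 46.8 and 53 in US+D, with C 1 and D low. Phenylalanine ammonia-lyase (Solyc03g042560.3.1, rank 237), the entry enzyme of phenylpropanoid synthesis, gave 3.81, 19.6 and 61.4 CPM in C, 16.6, 6.32 and 59.1 in US and 9.99, 3.46 and 25.4 in D, with 75.4, 1.43 and 15.1 in US+D. Its highest libraries were C 3, US 3, D 3 and US+D 1, as in the 17 members that varied in all groups. Cinnamoyl-CoA reductase and 4-coumarate:CoA ligase, 2 further enzymes of the pathway, had control SDs of 0.31 and 0.10 and were far from the members.

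**Figure D5:**
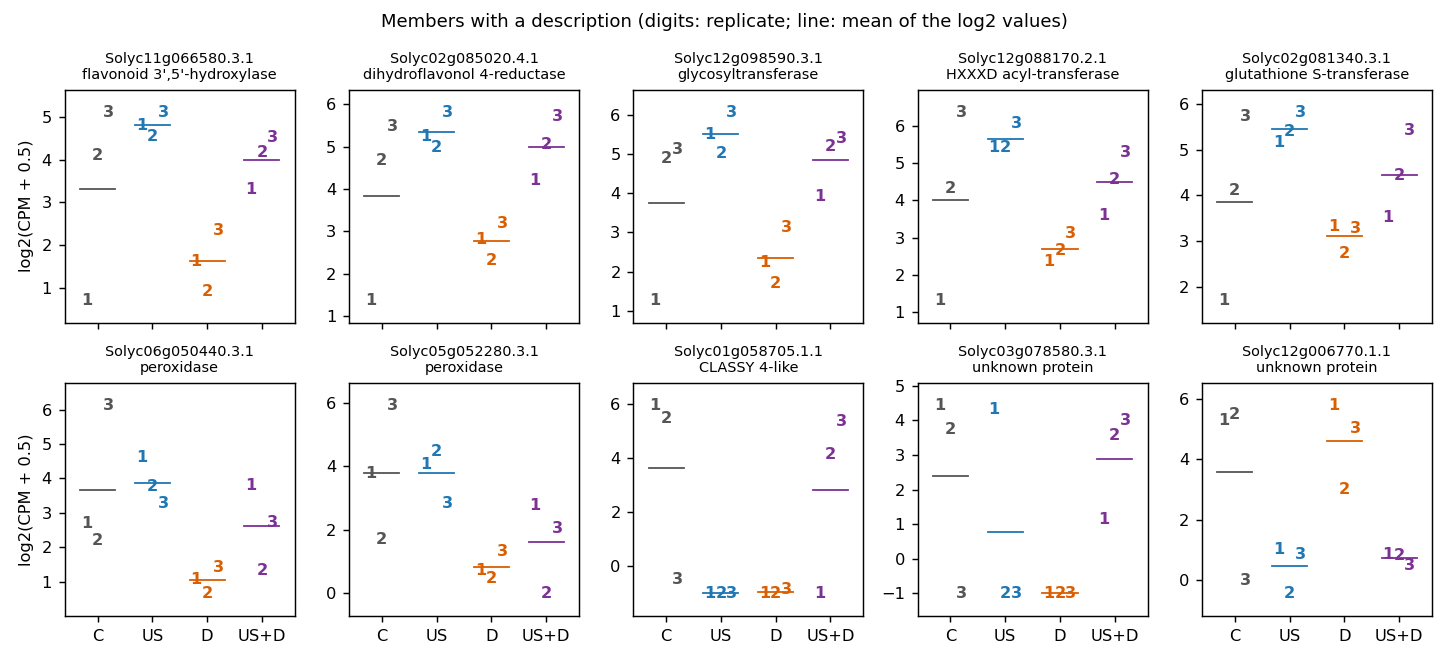
Log2(CPM + 0.5) (vertical axis, scaled per gene) of 10 described members in the 4 groups. Each digit is a library, drawn as its replicate number, and the line is the mean of the log2 values. In the first 5 panels C 1 lies below the D libraries, and the CLASSY 4-like gene is at or near 0 CPM in US and D.

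Both peroxidase members, of the enzyme class that oxidizes substrates with hydrogen peroxide, had one high control library. Solyc06g050440.3.1 (chromosome 6, 30776461 to 30778736, minus strand) gave 5.98, 4.04 and 69.1 CPM in C, 23.7, 13.2 and 9.08 in US and 1.61, 1.08 and 2.18 in D, with 13.5, 1.99 and 6.1 in US+D. Solyc05g052280.3.1 (chromosome 5, 61955387 to 61958433, minus strand) gave 13.2, 2.71 and 60.7 CPM in C, 16.4, 21.6 and 6.58 in US and 1.13, 0.871 and 1.99 in D, with 6.27, 0.485 and 3.6 in US+D. C 3 was the highest of all 12 libraries in both, and all 3 D libraries lay below all 3 US libraries. The log2 difference between D and US was -3.20 (SE 0.61, adjusted p = 0.109) and -3.43 (SE 0.78, adjusted p = 0.14) in edgeR. Without US+D 2 in the fit, both passed with adjusted p of 0.0465 and 0.0489, among 4 members called in that fit (0.199% of all genes). The remaining 2 genes of the peroxidase list, a peroxidase and a glutathione peroxidase, had control SDs of 0.22 and 0.15.

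A further 6 described members came from different protein classes. An ethylene-responsive heat shock cognate 70 (Solyc04g011440.4.1), a chaperone that helps proteins fold, gave 8.45, 4.63 and 183 CPM in C, 28.1, 20.5 and 19.9 in US and 97.7, 38 and 49.2 in D, with 26.1, 5.59 and 20.2 in US+D. Only C 3 was high among the controls, and the D libraries lay above those of US and US+D. A pathogenesis-related 5-like protein (Solyc08g080670.1.1), of the thaumatin-like defence proteins, gave 51.2, 7.33 and 1.24 CPM in C, 2.17, 1.64 and 0.19 in US and 2.35, 0.106 and 3.76 in D, with 1.81, 0.153 and 0.665 in US+D. It was 1 of the 2 members set by a high C 1, and no treated library exceeded 3.76 CPM. Threonine deaminase (Solyc09g008670.3.1), which starts isoleucine synthesis from threonine and has a wound-induced form in tomato, gave 1.85, 5.33 and 35.9 CPM in C, 27.2, 88.4 and 73.5 in US and 13.3, 50 and 58.3 in D, with 30.1, 1258 and 208 in US+D. US+D 2 stood far above every other library of this gene, and its SD in US+D was 2.68. A Lea14-like desiccation protectant (Solyc01g095140.4.1), of the late embryogenesis abundant proteins that accumulate in drying tissue, gave 0.491, 4.57 and 16.4 CPM in C, 2.93, 0.724 and 33.7 in US and 2.21, 0.712 and 4.53 in D, with 69.8, 46.9 and 25.2 in US+D. All US+D libraries of Lea14 lay above all D libraries, with a log2 difference of 4.24 (SE 1.29, adjusted p = 0.215 in edgeR), and US 3 alone was high in US. A P-loop nucleoside triphosphate hydrolase (Solyc03g033790.4.1) gave 4.91, 0.421 and 16.2 CPM in C, 5.33, 6.56 and 2.77 in US and 0.422, 0.369 and 0.671 in D, with 3.36, 0.0511 and 0.734 in US+D. A gene with a glyoxalase-like domain (Solyc06g007610.2.1) gave 3.14, 25.2 and 0.899 CPM in C, 4.22, 1.35 and 1.85 in US and 4.51, 3.38 and 2.83 in D, with 2.32, 3.63 and 2.01 in US+D. The last gene was highest in C 2, and its other 11 libraries lay between 0.899 and 4.51 CPM.

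In 27 members at least 1 library held 3 reads or fewer, in C for 10 of them and in a treated library for 24. Over all genes past the minimum 0.0653% had such a control library and 0.255% such a treated library, but a wide spread makes near-absence likely, so nothing is read from this. A CLASSY 4-like SNF2 gene (Solyc01g058705.1.1, chromosome 1, 61140013 to 61142601, minus strand) was the most uneven. CLASSY proteins are chromatin remodellers that in Arabidopsis direct the RNA-guided methylation of DNA. The gene gave 61.5, 43.3 and 0.212 CPM in C, 0, 0 and 0 in US and 0, 0 and 0.0479 in D, with 0, 17.1 and 40.7 in US+D. It thus had 3 reads or fewer in 7 libraries, i.e., all of US and D and US+D 1, with 21 reads in C 3, and at least 17.1 CPM in the other 4. Solyc03g078570.3.1 (chromosome 3, 45710408 to 45712971, minus strand) gave 217, 163 and 3.06 CPM in C, 130.1, 1.71 and 4.46 in US and 5.38, 4.83 and 4.96 in D, with 27.1, 118 and 172 in US+D. Its direct neighbour Solyc03g078580.3.1 (chromosome 3, 45714287 to 45714802, plus strand), described as an unknown protein, gave 21.1, 12.9 and 0 CPM in C, 19.3, 0 and 0 in US and 0, 0 and 0 in D, with 1.69, 11.3 and 15.5 in US+D. The 2 neighbours were high and low in the same libraries, on opposite strands. Solyc03g096140.2.1, on the same chromosome, gave 16.4, 9.71 and 0.0404 CPM in C, 25.3, 0.0965 and 0 in US and 12.8, 10.2 and 4.96 in D, with 0.297, 4.42 and 12.4 in US+D, i.e., it shared the low C 3, US 2 and US 3 but not the low D libraries.

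A set of 3 members described as unknown proteins and a PLAT/LH2 domain gene shared a high C 1 and C 2 and a low C 3, US and US+D, and in the PLAT/LH2 gene all D libraries also lay below C 1 and C 2. Solyc12g006760.1.1 (chromosome 12, 1201285 to 1201545, plus strand) gave 15.5, 17 and 0.121 CPM in C, 0.932, 0.0241 and 0.272 in US and 27.4, 4.01 and 14.2 in D, with 0.297, 0.562 and 0.161 in US+D. Its neighbour Solyc12g006770.1.1 (chromosome 12, 1203224 to 1203475, plus strand) gave 38.3, 44.6 and 0.495 CPM in C, 1.51, 0.241 and 1.31 in US and 54.8, 7.57 and 31.7 in D, with 1.31, 1.28 and 0.906 in US+D. Solyc07g044900.1.1 (chromosome 7, 57845994 to 57846146, plus strand) gave 47.9, 21.1 and 1.37 CPM in C, 1.3, 2.46 and 1.77 in US and 154, 16.1 and 51.1 in D, with 2.65, 0.536 and 0.356 in US+D. The PLAT/LH2 gene (Solyc03g096545.1.1), with a domain also found in lipoxygenases, gave 10.8, 10.2 and 0.0909 CPM in C, 0.605, 0.0483 and 0.0544 in US and 2.29, 0.633 and 1.94 in D, with 0.386, 0.128 and 0.0688 in US+D. All 3 D libraries lay above all US and all US+D libraries in the 4 genes. Solyc07g044900.1.1 had the smallest p of the members for US+D against D, with a log2 difference of -6.06 (SE 0.99, adjusted p = 0.0734 in edgeR), and Solyc12g006770.1.1 differed by -4.72 (SE 0.80, adjusted p = 0.0739). The smallest p for US+D against US was that of Solyc08g075570.4.1, which gave 0.892, 0.421 and 15.6 CPM in C, 4.56, 2.82 and 4.6 in US and 0.211, 0.106 and 0.24 in D, with 0.892, 0.0766 and 0.161 in US+D. Its log2 difference was -3.52 (SE 0.74, adjusted p = 0.998 in edgeR).

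Between the treated groups no member passed the test. In edgeR's quasi-likelihood fit to the 9 treated libraries, called means an adjusted p under 0.05 over all genes tested and a log2 fold change beyond 0.58. For D against US, US+D against D and US+D against US, 0 of the 198 members tested were called, as were 0% of the 21755 genes tested. At an unadjusted p under 0.05 there were 35 members for D against US (17.7%, against 13.8% of all genes), 25 for US+D against D (12.6% against 13.6%) and 10 for US+D against US (5.05% against 4.04%), shares near the background. The members lay apart between D and US, i.e., without any overlap of libraries, in 56 cases (28%, against 21% of all genes), 32 of them higher and 24 lower in D. For US+D against D this held for 20 (10% against 18.9%) and for US+D against US for 4 (2% against 4.94%). With DESeq2, 22 of the 198 members were called for D against US (4.35% of all genes), 8 higher and 14 lower in D. For US+D against D 20 were called (4.47% of all genes), 13 higher and 7 lower in US+D, and 1 for US+D against US (0.11% of all genes). With limma voom and quality weights the numbers were 7 of 198 (0.584% of all genes), all lower in D, and 58 of 198 (10.3% of all genes), 12 higher and 46 lower in US+D. For US+D against US 0 were called (0% of all genes), and 31 members had an unadjusted p under 0.05 (7.54% of all genes). For D against US and US+D against D the share of members called was above that of all genes in DESeq2 and voom. The tools thus differed in direction. The median log2 difference of the members for US+D against D was 0.47 in edgeR and 0.48 in DESeq2 but -0.76 in voom, and for US+D against US it was 0.25, 0.28 and -0.56, beside medians over all genes between -0.02 and 0.03. Solyc02g080330.4.1, singled out after its values were seen, gave a log2 difference of 0.28 for US+D against D in edgeR (SE 1.51, adjusted p = 0.956) and of -3.78 in voom (SE 0.87, adjusted p = 0.0258).

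Against C, where the same control libraries chose the members and widen the error, edgeR called 0 of 200 members for US (0% of 22157 genes), D (0.00451%) and US+D (0.00451%), and 0 for the interaction of both treatments (0%). At an unadjusted p under 0.05 there were 9 members for US (3.84% of all genes), 17 for D (11.1%), 12 for US+D (4.88%) and 9 for the interaction (6.42%). DESeq2 called 4 members for US (0.388% of all genes), 5 for D (1.95% of all genes), 6 for US+D (0.668% of all genes) and 2 for the interaction (0.492% of all genes). With limma voom 1 member was called for D (1.01% of all genes). For US, US+D and the interaction 0 were called (0.00451%, 0.158% and 0.00451% of all genes), where 13, 34 and 8 members had an unadjusted p under 0.05 (4.8%, 12.4% and 12% of all genes). The replicate block in edgeR left 0 members called for D against C (0.00903% of all genes). Nothing about the members is read from these counts.

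Some properties of the members had not entered the rule. Their annotated spans, introns included, were shorter, with a median of 1846.5 bases against 4253 over all genes, and the 200 genes ranked next had 1980.5. Their mean levels in US, D and US+D had medians of 9.71, 8.75 and 11.9 CPM against 25, 23.9 and 24.4 over all genes. These levels are not independent of the rule, since its minimum used the C mean, which a single high C library can lift. Nothing about the members is therefore read from them. In C, where the rule used the values, the medians were 19.6 and 25.9 CPM. All chromosomes held members, from 7 on chromosome 11 to 26 on chromosome 1, and 1 lay on the unplaced sequences. Another member was the direct neighbour of 16 members (8%, against 1.25% of all genes), in 8 pairs and no longer run, and both partners had the same control pattern in 6 pairs. The pairs were Solyc03g078570.3.1 with Solyc03g078580.3.1, Solyc12g006760.1.1 with Solyc12g006770.1.1, and, named after their values were seen, Solyc03g026280.3.1 with Solyc03g124110.2.1, Solyc03g034380.1.1 with Solyc03g034390.1.1, Solyc08g068480.1.1 with Solyc08g068490.3.1, Solyc09g072750.2.1 with Solyc09g072753.1.1, Solyc02g085010.1.1 with dihydroflavonol 4-reductase, and Solyc07g009500.3.1 with Solyc07g009510.1.1. Only the last 2 pairs differed in their pattern. Whether neighbours are near-identical copies that could share reads was not tested, and 4 members overlap another gene.

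The summed reads of the members took 0.376 to 1.16% of all counts per library, with the highest shares in C 2 and C 3 (1.1 and 1.16%). The shares in C are not independent of the rule. A high C 2 set 51 members and a high C 3 another 51, against 2 set by a high C 1. The lists for other cell types were thin because so few genes are described. For leaf mesophyll 8 genes matched and 1 was detected, at a mean of at least 1 CPM, so the leaf label could not be checked on these terms. Sums here were taken over all matched genes of a list, detected or not. The 8 mesophyll genes summed to 6.51 to 18.6 CPM in C, 5.44 to 15 in US and 38.9 to 66 in D, with 4.58 to 7.36 in US+D. Of 2 genes for xylem and secondary wall 1 was detected. The sum over the 2 was 53.2 CPM in US 3 against 17.3 and 14.8 in US 1 and US 2. It was 75.7 in US+D 2 against 18 and 9.82 in US+D 1 and US+D 3, with 3.08 to 10.5 in C and D. Of 3 phloem genes 2 were detected, with sums of 50.9, 86.9 and 89.6 CPM in US 1 to US 3, 52.3 to 70.1 in US+D and 21.7 to 37.3 in C and D. The single gene for dividing cells gave 209 to 266 CPM in C and 218 to 379.7 in the treated libraries. Of 2 flower genes 1 was detected, and the sum over the 2 was 4.06 to 11 CPM over all libraries. The trichome list held 1 gene at 0 in every library. Of 5 genes for microbial attack 4 were detected. The sum over the 5 was 77.2 CPM in C 1 against 29.4 and 21.8 in C 2 and C 3, while the treated libraries gave 11.6 to 27.9 CPM. In C 1, 51.2 CPM of the sum came from the pathogenesis-related 5-like member. Of 7 root-list genes 6 were detected, 2 of them the peroxidase members, with sums of 223 to 356 CPM in C and 255 to 390 in the treated libraries. Of 17 seed-list genes 15 were detected, with sums of 91.9 to 149 CPM in C, 105 to 269 in US and 402 to 590.4 in D, with 268 to 342 in US+D. Their part in the spread of the members was not tested. In bulk leaf RNA, fewer cells of a type and less RNA per cell cannot be told apart.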

How the data were processed

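Leaf poly(A) RNA of 12 libraries (4 groups of 3) was sequenced, and per the labels and methods the authors trimmed reads with fastp, aligned them with HISAT2 to tomato SL4.0 and counted them with featureCounts over ITAG4.0. The deposited table holds raw counts per gene over the whole transcript span, introns included, and strand use and the treatment of multiply mapped reads are not given in the sources used here. Whole-library totals were 33640280 to 106829565 counts. CPM was computed from column totals with a pseudocount of 0.5 and a minimum mean of 5. Counts were tested with edgeR 4.0.16 (TMM, filterByExpr, quasi-likelihood, Benjamini-Hochberg over all genes), with DESeq2 1.42.0 and limma 3.58.1 voom as alternatives. The test script was tested on simulated data. Replicates were labelled biological. Deviations of same-numbered libraries correlated positively across genes in all 3 pairs for C with D (r from 0.14 to 0.26). The same held for C with US+D (0.02, 0.76 and 0.28) and for no other groups. Differently numbered libraries also correlated, e.g., C 3 with US+D 1 at 0.55. The labels name no shared litter, batch or day. P-values measure the spread between these libraries only. With 3 against 3 a permutation test cannot go below p = 0.1. Members and lists were chosen with earlier results of these data known. Named genes were the 10 largest control SDs, the 5 highest control means, the 3 largest SDs in each treated group, up to 4 per list with at least 3 members, the smallest p per contrast, and the first 10 in all treated top 200 lists. Other described members were named after their values were seen. Descriptions came from the study's published gene lists. The RefSeq table of assembly SLM_r2.1 matched none of the identifiers, so no sequence or promoter was used here.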

Additional observations from a re-analysis of the deposited data

How the results depend on the processing

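The membership depended on the rule. Of the 200 members, 163 to 195 remained with a pseudocount of 0.1 or 2, a minimum of 1 CPM, TMM or DESeq2 scaling or thinned counts, but 99 with a minimum of 20 CPM, 120 with the coefficient of variation of CPM, and 86 to 142 without 1 control replicate. With the coefficient of variation, members among the 200 most variable numbered 30 in US and 21 in D. Without single replicates these counts ranged from 32 to 65 in US and 11 to 64 in D, with 49 to 69 in US+D. The median SD of the members over that of all genes ranged from 2.82 to 4.53 in US and 2.13 to 4.66 in D, with 3.63 to 5.13 in US+D without single replicates, i.e., it stayed above 1 in every setting tried. Between treated groups, edgeR called 0 members except for 4 for D against US without US+D 2, where 0.199% of all genes were called (0 to 4 without single replicates). DESeq2 called 22, 20 and 1 for D against US, US+D against D and US+D against US, and limma voom called 7, 58 and 0, all beside the shares of all genes given with them above. Against C, DESeq2 called 5 for D, 4 for US, 6 for US+D and 2 for the interaction, and voom called 1 for D (1.01% of all genes). The cause of the differences between tools was not tested. The log2 fold changes of the smallest-p members kept their sign in all 18 settings, from -3.77 to -2.98 for flavonoid 3',5'-hydroxylase, -7.27 to -4.97 for Solyc07g044900.1.1 and -4.86 to -3.10 for Solyc08g075570.4.1. Deviations of same-numbered libraries correlated from -0.40 to 0.76 across genes. In C with D every same-numbered pair exceeded 0.1 (0.14 to 0.26), and in no other pair of groups did all 3. In C with US+D all 3 were positive (0.02, 0.76 and 0.28). Differently numbered libraries reached 0.55 (C 3 with US+D 1). The replicate block gave 0 called members in every contrast, but it moved the median log2 difference of the members from 0.05 to -0.10 for D against US and from 0.25 to -0.07 for US+D against US, and voom turned it from 0.47 to -0.76 for US+D against D, from 0.25 to -0.56 for US+D against US, from -0.94 to 0.06 for US against C, from -1.16 to 0.24 for D against C and from 1.27 to -0.82 for the interaction. In edgeR, leaving out US+D 2 also turned the median, to -0.24 for US+D against D and -0.70 for US+D against US. With 3 libraries a group, an SD rests on 2 degrees of freedom, and single libraries set much of what is described.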
